A study of Marchantia polymorpha with 12 samples.

Results

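Tak-2 and Tak-1 are the female and the male laboratory wild type of the liverwort Marchantia polymorpha, and 6 of the 12 RNA-seq libraries of the series, libraries A, B and C of each strain, were compared here. Plants were grown from gemmae for 3 weeks without other organisms, and thalli with their rhizoids were harvested together. The other 6 libraries come from a female line labelled Mpmri-1 (MpMRI knockdown) and a male line labelled Mpfer-1 (MpFER knockdown), which were used only to ask whether a difference between the wild types also separates a second female from a second male. Each sex is represented by 1 wild-type strain, so sex and strain cannot be told apart in what follows. The labels do not say whether libraries A, B and C came from separate cultures, and p-values then measure only the spread between these samples. Of 18336 gene identifiers, 18135 lie on autosomes 1 to 8, 47 on the U chromosome, 93 on the V chromosome and 61 on no placed chromosome. In that order 13927, 34, 44 and 39 had enough counts to be tested.

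The liverwort spends most of its life as a haploid plant. A spore that receives the U chromosome grows into a female and one that receives the V chromosome into a male, so a thallus carries a single sex chromosome. The U-linked regulator MpBPCU acts as the feminizer, and through the autosomal locus of MpFGMYB it decides which sexual programme germ cells follow. Females and males look much alike until they form stalked sex organs, which far-red-enriched light and long days bring about.

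Each library held 25548033 to 35269109 estimated counts. Levels are given as CPM, counts per 1000000 counts of a library scaled by edgeR's TMM factors, differences as log2 (Tak-2 minus Tak-1) from edgeR's quasi-likelihood fit with its SE, and a gene is called when the Benjamini-Hochberg adjusted p, taken over all 14044 genes tested, is under 0.05. Rank correlations of gene levels were 0.995 to 0.997 within Tak-2, 0.993 to 0.998 within Tak-1 and 0.961 to 0.965 between the strains. Library C of Tak-1 stood apart from A and B on the second principal component of the wild types, which held 5.45% of the variance beside 83.8% on the first. The TMM factors of Tak-2, at 0.940, 0.956 and 0.974, did not overlap with those of Tak-1, at 1.05, 1.05 and 0.993, and without them the median difference of all genes of Tak-2 minus Tak-1 moved to -0.11.

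The sex chromosomes separated the strains almost completely. Of the 34 U genes tested, 33 rose in Tak-2 and 1 fell, and of the 44 V genes tested, 36 fell in Tak-2, 2 rose and 6 were not called. Among all genes 35.1% were called, 17.1% higher and 18.0% lower in Tak-2. Of the 33 U genes, 26 had no count in any Tak-1 library, and of the 36 V genes, 27 had no count in any Tak-2 library. MpBPCU (MpUg00370) had 22.9, 23.9 and 23.0 CPM in Tak-2 and 0 counts in each Tak-1 library, which made it at least 751-fold higher when Tak-1 is set at 3 counts over its 3 libraries. MpRAB11AX (MpUg00350), a Rab GTPase of the kind that directs membrane traffic, had 200, 215 and 227 CPM in Tak-2 and none in Tak-1. MpMYCX (MpUg00430), the U-linked relative of the transcription factor that carries the jasmonate-type signal in this plant, had 50.4, 49.5 and 47.7 CPM in Tak-2 and none in Tak-1. These 3 genes thus mark every Tak-2 library, and they were also counted in every library labelled Mpmri-1 and in none labelled Mpfer-1.

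On the V chromosome, MpVg00760 had 0 counts in Tak-2 and 229, 234 and 257 CPM in Tak-1, and MpVg00970 had 0 counts in Tak-2 and 212, 209 and 194 CPM in Tak-1. MpVg00980, at 134, 141 and 130 CPM in Tak-1, and MpVg00510, at 123, 121 and 115 CPM, likewise had no count in Tak-2. The V identifiers carry no gene symbol in the annotation used here, so their roles are not given. Among the 28 V genes that fell in Tak-2 and reached 1 CPM in Tak-1, 4 had at most 3 counts over the libraries labelled Mpfer-1. Of these 4, MpVg00930 had 0, 0 and 0.170 CPM in Tak-2, 16.0, 15.7 and 15.1 CPM in Tak-1 and none in Mpfer-1, and MpVg00700 had 0, 0.0367 and 0.102 CPM in Tak-2, 6.62, 6.92 and 7.88 CPM in Tak-1 and none in Mpfer-1. The 2 male lines thus differed in which V genes were detected at this depth.

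Some U and V identifiers were counted in both sexes. A thallus carries a single sex chromosome, so such counts are not taken as transcripts of the chromosome it lacks. Their source was not tested. MpUg00330 had 744, 725 and 747 CPM in Tak-2 and 616, 594 and 569 CPM in Tak-1, a difference of 0.32 (SE 0.08, adjusted p = 0.0107 by edgeR). It missed the threshold, at adjusted p = 0.0601, when library totals were used without TMM. MpUg00400 was the U gene that fell, with 0.792, 0.624 and 0.884 CPM in Tak-2 and 3.93, 4.72 and 4.51 CPM in Tak-1. MpVg00890, at 35.5, 35.1 and 35.3 CPM in Tak-2 and 35.5, 37.7 and 32.2 CPM in Tak-1, was at like levels in both strains, with a difference of 0.01 (SE 0.13, adjusted p = 0.977 by edgeR). MpVg01240 went against most V identifiers, with 10326, 15595 and 6701 CPM in Tak-2 and 182, 1036 and 1904 CPM in Tak-1. Its counts rose by 3.39 (SE 0.77, adjusted p = 0.00525 by edgeR). V identifiers took 0.976%, 1.497% and 0.660% of all counts in the Tak-2 libraries, nearly all of it from MpVg01240, against 0.199%, 0.290% and 0.355% in the Tak-1 libraries. A pair of autosomal identifiers among the largest rises in CPM varied over the libraries in a like way: Mp6g09310 had 2094, 2964 and 1331 CPM in Tak-2 and 34.8, 218 and 332 CPM in Tak-1, and Mp8g12450 had 1056, 1575 and 782 CPM in Tak-2 and 25.7, 129 and 106 CPM in Tak-1. In all 3 the B library was the highest of Tak-2 and the A library the lowest of Tak-1, and what these identifiers share was not tested.

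**Figure D1:**
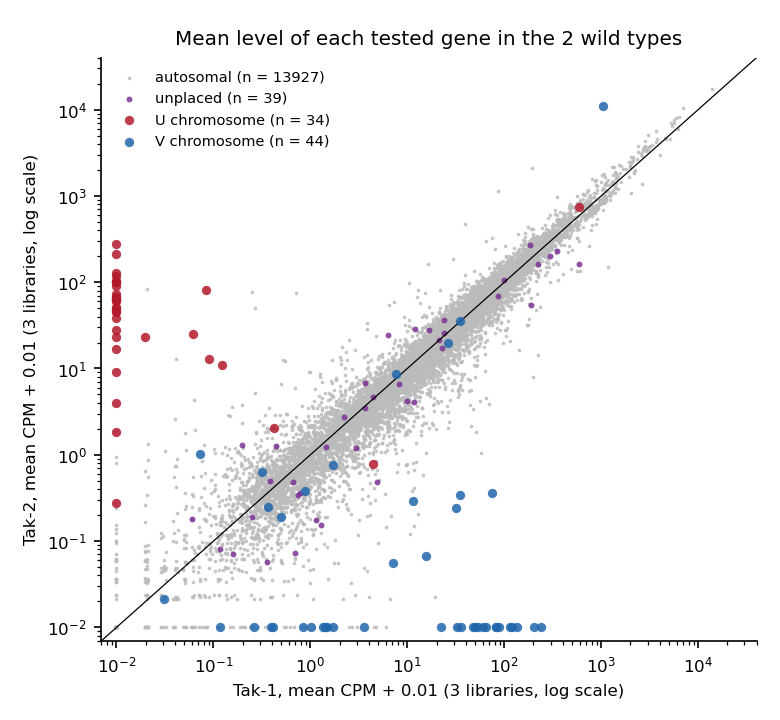
Mean CPM of each tested gene in Tak-2 (vertical axis) and in Tak-1 (horizontal axis), both on log scales after adding 0.01, with 3 libraries per strain; each point is a gene and the line marks equal levels. Of the U genes (red) 26 of those called higher lie on the left edge, where Tak-1 had no counts, and of the V genes (blue) 27 of those called lower lie on the bottom edge, where Tak-2 had none; the blue point at the upper right is MpVg01240, with 10326, 15595 and 6701 CPM in Tak-2.

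Known regulators of sex determination and germ cells included 5 tested autosomal genes. With all 12 libraries fitted together, the MpFGMYB locus was the only 1 of them called. MpR2R3-MYB1 (Mp1g17210), which the annotation gives as a synonym of MpFGMYB, had 0, 0.0367 and 0.0680 CPM in Tak-2 and 3.63, 3.96 and 3.83 CPM in Tak-1. It was lower in Tak-2 by a ratio of 102 (exact 95% binomial interval 34.8 to 499, counting error only; adjusted p = 3.3e-06 by edgeR). The lines split the same way, with no count in any library labelled Mpmri-1 and 4.76, 3.24 and 4.89 CPM in those labelled Mpfer-1. MpFGMYB is known as a promoter of female differentiation, and the direction here was the reverse of that role. Males are known to transcribe an antisense RNA, SUF, from the same locus, and the strand used in counting is not given in the sources used here, so reads of MpFGMYB and of SUF cannot be told apart.

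The germ cell regulators were not called with all 12 libraries fitted together. With the wild types fitted alone, 2 tested genes of the sex determination list rose and 2 fell, against 1 and 1 with all libraries. This list includes MpBPCU and the MpFGMYB locus. MpRKD (Mp3g04030), an RWP-RK factor needed for egg and sperm formation, had 153, 149 and 146 CPM in Tak-2 and 136, 141 and 136 CPM in Tak-1, with a difference of 0.11 (SE 0.09, adjusted p = 0.343 by edgeR) although the libraries did not overlap, as in 55.8% of the autosomal genes tested. MpDUO1, a MYB factor of sperm development, had 1.04, 0.918 and 0.748 CPM in Tak-2 and 0.899, 0.472 and 0.828 CPM in Tak-1. MpC2H2-3, a synonym of the sperm factor MpDAZ1, had 7.67, 6.42 and 7.24 CPM in Tak-2 and 5.86, 5.60 and 5.48 CPM in Tak-1, again without overlap, and its adjusted p was 0.0777 by edgeR. MpCache2, a synonym of the histidine kinase MpCKI1 that acts in the female gametophyte of Arabidopsis, had 14.3, 14.8 and 14.6 CPM in Tak-2 and 18.6, 17.0 and 16.1 CPM in Tak-1 (adjusted p = 0.368 by edgeR). MpBHLH20, a synonym of the germline initiator MpBNB, had 0, 0 and 0.0680 CPM in Tak-2 and no count in Tak-1, and was too low to test.

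Markers of sex organs did not move as a group between the strains. The protamine-like MpPRM (Mp3g14390) had at most 0.0367 CPM in any wild-type library, and MpLC7 (Mp6g01560) at most 0.0340 CPM. Over the 6 tested markers of antheridia and sperm 1 rose and 2 fell, beside 17.1% and 18.0% of all genes. The number that fell was 1 without library A or C of Tak-2 or A or B of Tak-1, and the number that rose was 0 without TMM and 2 with the wild types fitted alone. The summed level of the whole list was 309 to 329 CPM in Tak-2 and 327 to 331 CPM in Tak-1. MpTUA5, an alpha-tubulin gene of that list, had 0.167, 0.147 and 0.136 CPM in Tak-2 and 0.965, 0.818 and 0.714 CPM in Tak-1. Over the 4 tested markers of archegonia and eggs none was called.

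**Figure D2:**
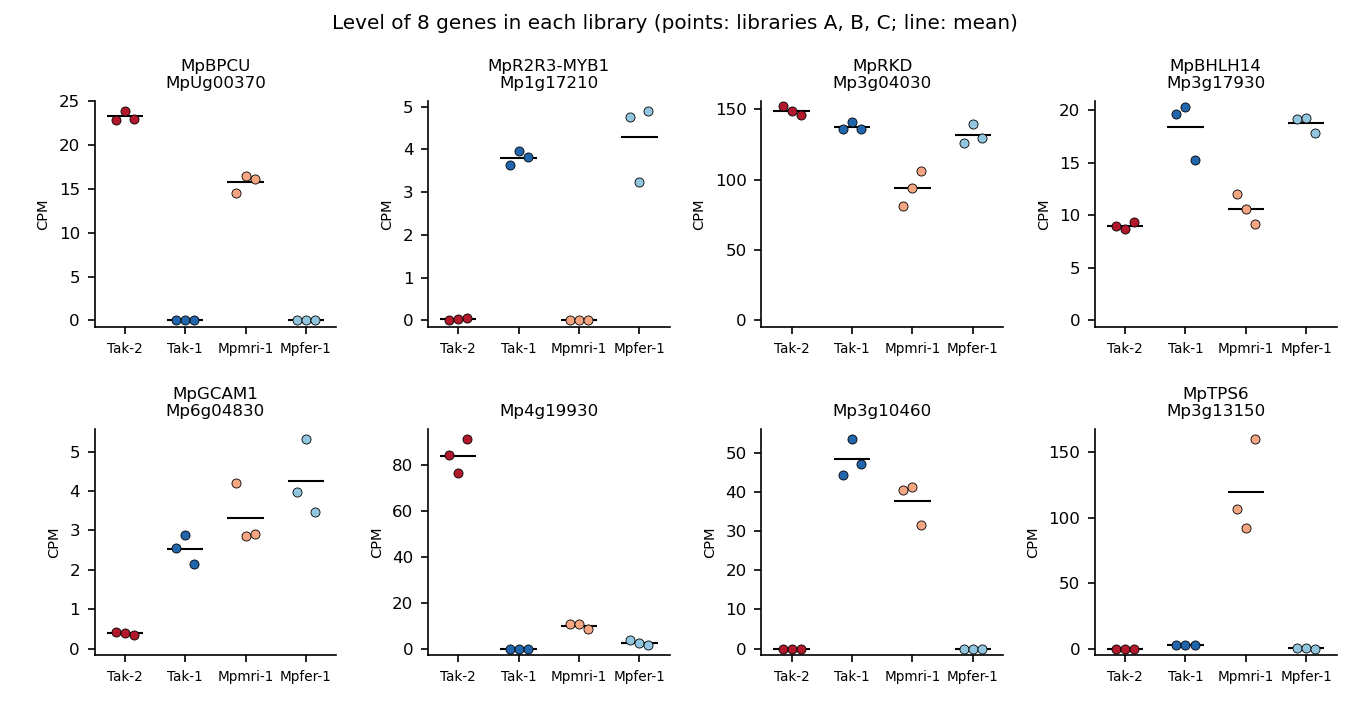
CPM of 8 genes in each library (points, A to C from left to right within a group) with the group mean (line), for Tak-2, Tak-1 and the lines labelled Mpmri-1 and Mpfer-1. MpBPCU follows the U chromosome, MpBHLH14 is lower in both females, and Mp3g10460 is counted in Tak-1 and Mpmri-1 but not in Tak-2 or Mpfer-1. The MpFGMYB locus (MpR2R3-MYB1) had 369 and 471 counts over Tak-1 and Mpfer-1, 3 over Tak-2 and 0 over Mpmri-1.

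Away from the sex chromosomes, 2364 autosomal genes rose in Tak-2 (17.0%) and 2478 fell (17.8%), 34.8% in all, so the number of calls was nearly balanced. Size was not: 3541 of these calls were under 2-fold, and of those at 2-fold or more 371 were higher (2.66%) and 930 lower (6.68%). At 16-fold or more 33 were higher and 76 lower. Every autosome took part, with 31.5% to 39.4% of its tested genes called, and chromosome 4 had the largest share. When library totals were used without TMM, 1401 autosomal genes were called higher and 3287 lower, so the balance of all calls rests on the scaling, while those of at least 2-fold still held more lower genes, 1129, than higher ones, 309.

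Of the 5 largest fitted rises among autosomal genes with at least 1 CPM in Tak-2, 4 lay together on chromosome 4. The other was Mp7g01330, with 1.33, 2.68 and 1.56 CPM in Tak-2 and 0 counts in Tak-1, at least 60.4-fold higher in Tak-2. Mp4g19930 had 84.7, 76.5 and 91.4 CPM in Tak-2 and 0, 0.0315 and 0 CPM in Tak-1. Mp4g19960 had 79.3, 81.3 and 70.5 CPM in Tak-2 and 0.266, 0.283 and 0.171 CPM in Tak-1, a difference of 8.32 (SE 0.23, adjusted p = 6.73e-10 by edgeR). Mp4g19940, at 41.8, 45.9 and 64.9 CPM in Tak-2 and 0.0998, 0.566 and 0.114 CPM in Tak-1, and Mp4g19890, at 13, 12.8 and 12.6 CPM in Tak-2 and 0.0333, 0.0315 and 0.0286 CPM in Tak-1, followed. None of these 4 genes has a symbol. Their neighbours were mixed: Mp4g19900, which lies between Mp4g19890 and Mp4g19930 in locus number, had 0.250, 0.771 and 0.714 CPM in Tak-2 and 17.7, 12.8 and 12.6 CPM in Tak-1, and Mp4g19980 had a difference of 0.08 (SE 0.10, adjusted p = 0.562 by edgeR). Mp4g19960 kept its difference between the lines labelled Mpmri-1 (56.9, 69.0 and 44.2 CPM) and Mpfer-1 (0.144, 0.154 and 0.243 CPM).

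**Figure D3:**
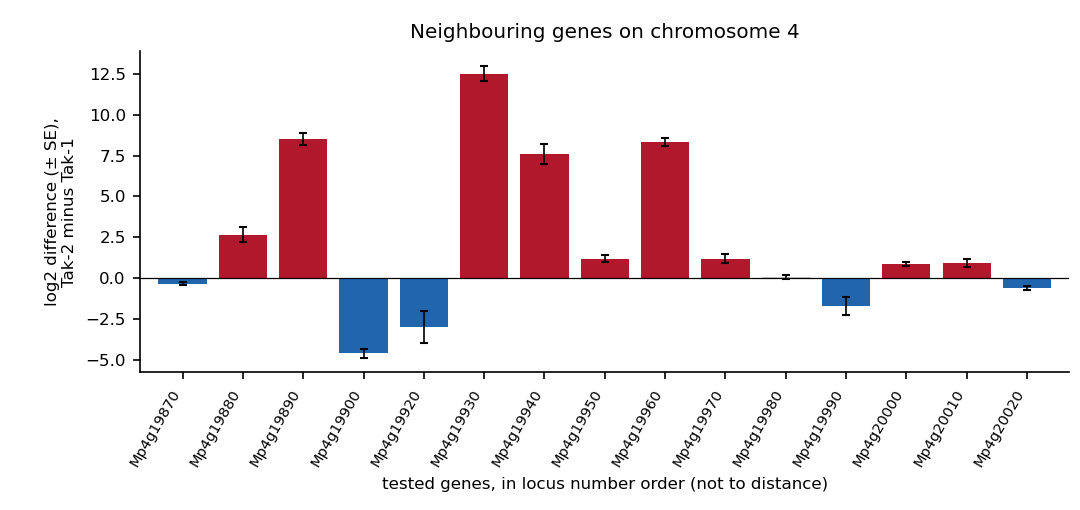
Difference in log2 level, Tak-2 minus Tak-1, with its SE, for the 15 tested genes from Mp4g19870 to Mp4g20020, in the order of their locus numbers (red: called higher, blue: called lower, grey: not called). The bars of Mp4g19890, Mp4g19930, Mp4g19940 and Mp4g19960 stand far above their neighbours; the bar of Mp4g19930 rests on 1 count in Tak-1, so its fitted height is no measured ratio.

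Among called autosomal genes with a symbol, at least 1 CPM in Tak-2 and no overlap of libraries, the largest rises were in a pair of cytochrome P450 genes. MpCYP704-like8 (Mp3g10820) had 74.3, 73.0 and 75.3 CPM in Tak-2 and 0.799, 0.346 and 0.942 CPM in Tak-1, a difference of 6.72 (SE 0.28, adjusted p = 9.39e-09 by edgeR). Its relative MpCYP704-like7 (Mp3g10730) had 1.21, 1.28 and 1.5 CPM in Tak-2 and 0.0333, 0 and 0 CPM in Tak-1. MpCYP704-like8 went the other way between the mutant lines, with 0.516, 0.101 and 0.198 CPM in the female line labelled Mpmri-1 and 10.1, 11.1 and 12.6 CPM in the male line labelled Mpfer-1. MpCYP704-like7 had few counts in either line, at 0.0469, 0 and 0 CPM in Mpmri-1 and 0.0866, 0.246 and 0.365 CPM in Mpfer-1. MpCE13.2, a carbohydrate esterase of the family that removes acetyl groups from pectin, had 3.75, 4.22 and 4.83 CPM in Tak-2 and 0.0666, 0.0944 and 0 CPM in Tak-1. The transcription factor MpASLBD1, the peroxidase MpPOD49 and the dirigent-type MpDIR44 also rose, with at most 0.114 CPM in any Tak-1 library. MpDIR44, at 1.71, 0.807 and 1.36 CPM in Tak-2 and 0.0666, 0.0315 and 0.114 CPM in Tak-1, was not called by limma voom (adjusted p = 0.178).

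The largest falls included genes with no count in Tak-2. Mp3g10460 had 0 counts in Tak-2 and 44.5, 53.5 and 47.3 CPM in Tak-1, and Mp6g09290 had 0 counts in Tak-2 and 32.4, 27.7 and 32.2 CPM in Tak-1, which made them at least 1303-fold and at least 828-fold lower in Tak-2. Mp4g20540 had 0, 0.0367 and 0 CPM in Tak-2 and 19.2, 18.1 and 20.5 CPM in Tak-1. MpTPS6 (Mp3g13150), a terpene synthase gene, had 0 counts in Tak-2 and 2.90, 2.64 and 2.48 CPM in Tak-1, and the microbial-type terpene synthase gene MpMTPSL23 (Mp4g19090) had 0.0417, 0 and 0 CPM in Tak-2 and 3.49, 3.96 and 1.23 CPM in Tak-1. MpPR1e (Mp2g11950), of the PR1 family of secreted defence proteins, had 0.167, 0.294 and 0.136 CPM in Tak-2 and 13, 12.7 and 13.1 CPM in Tak-1, a fall of 6.0 (SE 0.33, adjusted p = 1.02e-07 by edgeR). MpRLK-Pelle_WAK1, a receptor-like kinase of the wall-associated type, had 0, 0 and 0.0680 CPM in Tak-2 and 2.60, 2.20 and 3.06 CPM in Tak-1.

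By a stricter measure, 18 autosomal genes had at least 50 counts in each library of 1 strain and at most 3 counts over the other. Of these, 3 were on in Tak-2 and 15 were on in Tak-1, 8 of the 15 with no count in Tak-2. The number was 32 with at least 20 counts, and 8 with 0 counts over the other strain. The 3 that were on in Tak-2 were Mp4g19930, Mp4g19890 and Mp3g11970. In a mutant line a gene was read as detected with over 3 counts over its 3 libraries. Of the 15 that were on in Tak-1, 2 had over 3 counts in the male line labelled Mpfer-1 alone, 4 in the female line labelled Mpmri-1 alone, 6 in both and 3 in neither. Mp4g20540 and the MpFGMYB locus were the 2 detected in Mpfer-1 alone. Mp7g07880 counts under both lines, but with 8 counts in Mpmri-1 and 306 in Mpfer-1, and Mp3g20670 counts under Mpmri-1 with 8 counts. Mp3g10460 was on in Tak-1 and in Mpmri-1, with 40.5, 41.3 and 31.5 CPM, and at 0 in Mpfer-1. Mp8g00200 was on in Tak-1 alone, with 5.26, 6.13 and 6.57 CPM there and no count in any library of Tak-2, Mpmri-1 or Mpfer-1.

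Of the genes that make phenolic compounds, more fell than rose in Tak-2. Of 46 tested genes of phenylpropanoid and flavonoid synthesis 7 rose and 20 fell (58.7% called), beside 17.1% and 18.0% of all genes (35.1% called). Their median difference was -0.56, beside 0.00 for all genes tested. MpPKS/CHS18 (Mp4g18370), of the chalcone synthase family that starts flavonoids, had 1.37, 3.05 and 1.67 CPM in Tak-2 and 18, 14 and 18.7 CPM in Tak-1, a fall of 3.05 (SE 0.28, adjusted p = 1.14e-05 by edgeR). MpPKS/CHS16 and MpPKS/CHS17 fell by 2.81 and 2.39. Of the 11 phenylalanine ammonia-lyase genes, whose product opens the pathway, 1 rose and 7 fell, and 4 fell without library C of Tak-2. Their summed level overlapped between the strains, at 422, 359 and 454 CPM in Tak-2 and 399.6, 395 and 435 CPM in Tak-1. Members of the 2 families alternate on chromosome 4, where MpPAL7, MpPKS/CHS11, MpPAL6, MpPKS/CHS12, MpPAL-like2 and MpPKS/CHS13 form 6 neighbouring tested genes that all fell by 1.08 to 2.16. The summed level of the list was lower in every Tak-2 library by a small margin, at 1640, 1542 and 1696 CPM in Tak-2 and 1798, 1742 and 1932 CPM in Tak-1. Copies in such tandem groups resemble each other, and how the authors' estimated counts divided shared reads among them is not given.

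Oxidases of phenolics and defence genes were called at shares on both sides of the 35.1% of all genes. MpPPO4 and MpPPO52, polyphenol oxidases, fell by 3.49 and 4.14, and of the 41 polyphenol oxidases tested 6 rose and 10 fell (39.0% called). The peroxidase MpPOD89 had 5.54, 12.3 and 6.19 CPM in Tak-2 and 173, 116 and 303 CPM in Tak-1, a fall of 4.62 (SE 0.42, adjusted p = 1.05e-05 by edgeR), while 7 of 133 peroxidases rose and 24 fell. That is 23.3% called, and the share that fell was close to the 18.0% of all genes. Without 1 library 3 to 9 peroxidases rose and 19 to 33 fell, without TMM 3 rose, and with the wild types fitted alone 12 rose and 32 fell. Of 13 WRKY transcription factors, a family known for steering defence responses, none rose and 9 fell (69.2% called), with a median difference of -0.44. MpWRKY3 fell by 4.45 (SE 0.35, adjusted p = 3.13e-06 by edgeR), and MpWRKY13 had 5.67, 5.84 and 6.87 CPM in Tak-2 and 22.0, 21.6 and 19.4 CPM in Tak-1. Of 34 pathogenesis-related (PR) genes 3 rose and 7 fell (29.4% called). The chitinase-type MpGH19.3 had 1.62, 1.58 and 2.82 CPM in Tak-2 and 20.3, 13.3 and 44.9 CPM in Tak-1.

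Several of these genes also varied among the Tak-1 libraries. MpPR1o had 2.96, 4.0 and 3.16 CPM in Tak-2 and 40.1, 22.7 and 80.7 CPM in Tak-1, and MpPR5b had 19.5, 18.5 and 23.1 CPM in Tak-2 and 51.2, 40.7 and 97.0 CPM in Tak-1. Mp7g02900, with the largest fall in CPM of all autosomal genes that passed the naming rule, had 80.1, 250 and 123 CPM in Tak-2 and 1062, 583 and 1904 CPM in Tak-1. In each of them, and in MpPOD89, MpPPO4 and MpGH19.3, library C was the highest and B the lowest of Tak-1, yet every Tak-1 library stood above every Tak-2 library. Both mutant lines were higher still: Mp7g02900 reached 24668 to 42118 CPM in Mpmri-1 and 18074 to 20513 CPM in Mpfer-1, and MpPR1o reached 490 to 917 CPM in Mpmri-1 and 206 to 275 CPM in Mpfer-1.

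Genes of the replicative helicase were lower in Tak-2. Of the 10 tested genes of the MCM family 7 fell, beside 18.0% of all genes. MpMCM8 and the gene annotated as MpMCM rose by 0.44 and 0.32, while MpMCM10 was not called. With any 1 of the 6 wild-type libraries left out at most 1 of the family rose, and none did without TMM. All 6 subunits of the MCM2 to MCM7 helicase, which opens DNA at replication origins, fell, and they fell with each of the 6 wild-type libraries left out in turn. MpMCM3 had 3.83, 4.81 and 2.96 CPM in Tak-2 and 11.4, 11.9 and 8.00 CPM in Tak-1, a fall of 1.43 (SE 0.24, adjusted p = 8.23e-04 by edgeR). MpMCM6 fell by 1.28, MpMCM4 by 1.21, MpMCM2 by 1.13, MpMCM7 by 1.01 and MpMCM5 by 0.89. In all 6 genes library B was the highest of Tak-2 and library C the lowest of Tak-1, and the part of this spread in the result was not tested. Of 10 cell cycle genes tested 2 rose and 6 fell, beside 17.1% and 18.0% of all genes. The lower ones included the cyclins MpCYCA (a fall of 1.19), MpCYCB_1 (1.17) and MpCYCD_1 (1.15). MpCYCB_1, a mitotic cyclin, had 16.7, 20.04 and 12.8 CPM in Tak-2 and 39.9, 43.0 and 28.3 CPM in Tak-1.

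Histone genes used during replication were lower too, with more spread. Of 12 genes for histone H3.1 and H4, 10 fell, 1 rose and 1 was not called, and their sum was 358, 412 and 335 CPM in Tak-2 and 570, 557 and 542 CPM in Tak-1. They are a part of the list of histones and chromatin. Of the 43 tested genes of that whole list 4 rose and 16 fell, beside 17.1% and 18.0% of all genes. Without 1 library 1 to 3 of the whole list rose and 7 to 16 fell. MpH3.1c had 11.2, 16.4 and 9.96 CPM in Tak-2 and 56.4, 51.6 and 49.9 CPM in Tak-1, a fall of 2.07 (SE 0.25, adjusted p = 7.94e-05 by edgeR), while MpH4e rose by 0.30. The rise of MpH4e was not called without TMM (adjusted p = 0.0751 by edgeR), nor without library A or C of Tak-2 or A or B of Tak-1 (adjusted p = 0.0573 to 0.0765). Among the 12 H3.1 and H4 genes the count of lower ones moved with the libraries. It was 3 without library C of Tak-2 and 4 without library A of Tak-2, and 7 to 9 without any of the others. In 11 of the 12 genes library B was the highest of Tak-2. Such histone copies are nearly identical to each other, so the split of reads among them is uncertain while their sum is less so.

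Several other lists had a median above 0. Of 17 acyl-CoA synthetase-like (ACOS) genes, 9 rose and 2 fell, and MpACOS13 had 27.6, 24.4 and 27.2 CPM in Tak-2 and 12.5, 12.8 and 13.4 CPM in Tak-1, a rise of 1.03 (SE 0.10, adjusted p = 1.29e-05 by edgeR). Of 21 autophagy (ATG) genes 8 rose and 1 fell; MpATG8b, whose product coats autophagosomes, had 242, 233 and 246 CPM in Tak-2 and 157, 154 and 187 CPM in Tak-1. Of 17 peroxin (PEX) genes, which build peroxisomes, 5 rose and none fell, led by MpPEX11b at 561, 529 and 491 CPM in Tak-2 and 335, 341 and 377 CPM in Tak-1. Of 13 light receptor and clock genes 6 rose and none fell: the blue-light receptor MpPHOT, at 283, 269 and 304 CPM in Tak-2 and 207, 217 and 181 CPM in Tak-1, MpBHLH6 (a synonym of MpPIF, a partner of phytochrome), Mp1R-MYB11 (a synonym of the clock factor MpRVE), MpCRY, MpUVR8 and MpCOP1. The share called was 64.7% of the ACOS, 42.9% of the ATG, 29.4% of the PEX and 46.2% of the light and clock genes. Among all genes 35.1% were called and 17.1% were higher, so the PEX genes were called less often than genes at large. The small rises in these lists are where the scaling matters. Without TMM the genes called higher numbered 7 of the ACOS, 4 of the ATG, 2 of the PEX and 1 of the light and clock list. The PEX count also fell to 2 without library C of Tak-2 or library B of Tak-1, and to 3 without library A of either strain.

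**Figure D4:**
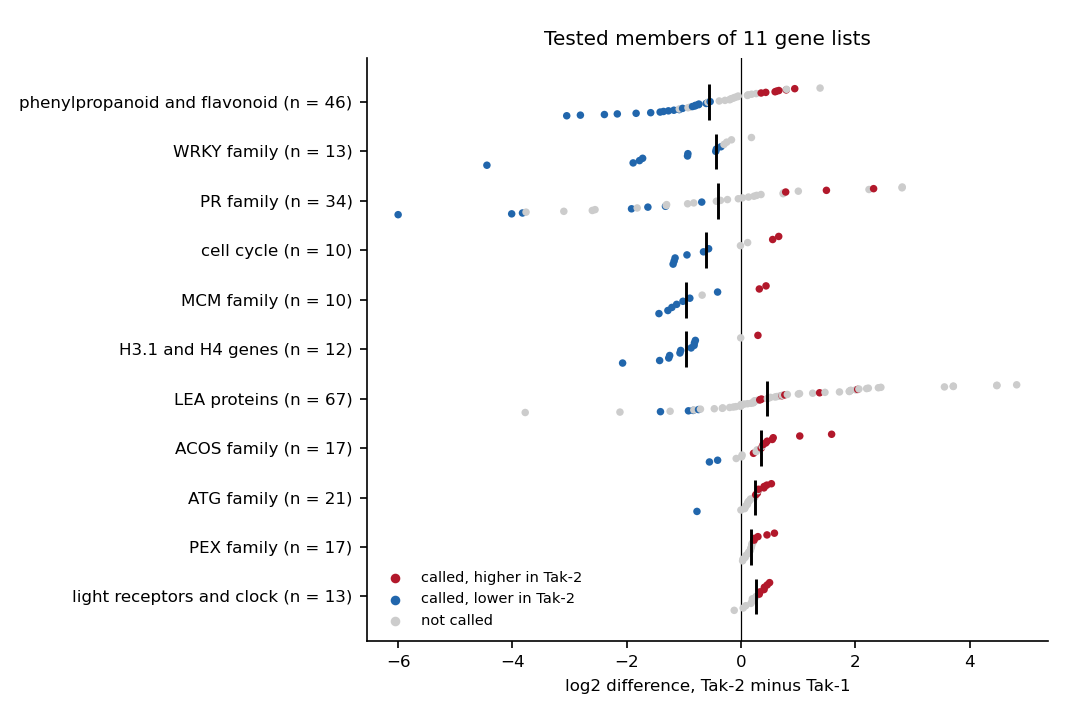
Difference in log2 level, Tak-2 minus Tak-1, of every tested member of 11 gene lists (points; red: called higher, blue: called lower, grey: not called), with the median of each list (black bar). The phenylpropanoid, WRKY, PR, cell cycle, MCM and H3.1 and H4 lists have their medians at -0.56, -0.44, -0.39, -0.61, -0.95 and -0.96. The LEA, ACOS, ATG, PEX and light and clock lists have theirs at 0.46, 0.35, 0.24, 0.18 and 0.26. In the LEA list 56 of 67 genes were not called. Some of its points far from 0 have a large SE, such as MpLEA-like45 at 4.48 (SE 5.78).

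Genes of thallus structures differed in part. MpGCAM1 (Mp6g04830), a MYB factor needed for gemma cups, had 0.417, 0.404 and 0.34 CPM in Tak-2 and 2.56, 2.89 and 2.14 CPM in Tak-1, a fall of 2.70 (SE 0.27, adjusted p = 2.2e-05 by edgeR). MpBHLH14 (Mp3g17930), a synonym of MpRSL1, which rhizoids and gemmae need in order to form, had 9.0, 8.70 and 9.31 CPM in Tak-2 and 19.6, 20.3 and 15.2 CPM in Tak-1, a fall of 1.03 (SE 0.13, adjusted p = 1.06e-04 by edgeR). In both genes the strains did not overlap. MpBHLH14 was the only 1 of 3 tested rhizoid markers to be called, and the median difference of the 3 was 0.11. MpKAR, the Rop exchange factor needed for gemmae to form, had 30.2, 28.7 and 26 CPM in Tak-2 and 33.1, 33.5 and 27.1 CPM in Tak-1. It was not called (adjusted p = 0.441 by edgeR). In bulk RNA, fewer cells of a type and less RNA per cell cannot be told apart. MpRBCS, of the small subunit of Rubisco, had 171, 193 and 137 CPM in Tak-2 and 278, 265 and 308 CPM in Tak-1 and fell by 0.77.

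Oil body cells, which store terpenes, had regulators that were not called. MpC1HDZ, which sets the number of these cells, had 41.9, 41.8 and 32.1 CPM in Tak-2 and 43.0, 43.5 and 31.8 CPM in Tak-1, and MpERF13, which promotes their formation, had 7.04, 8.26 and 5.78 CPM in Tak-2 and 7.75, 7.86 and 6.14 CPM in Tak-1. Their differences were -0.03 and -0.05. Of the 22 terpene synthases tested 6 rose and 7 fell (59.1% called, beside 35.1% of all genes). MpMTPSL22 went the other way from MpTPS6 and MpMTPSL23, with 1.17, 0.918 and 0.748 CPM in Tak-2 and 0 counts in Tak-1.

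Hormone genes changed singly. MpPIN3, of the auxin exporter family, had 8.75, 8.51 and 16.6 CPM in Tak-2 and 2.43, 1.98 and 1.83 CPM in Tak-1, a rise of 2.45 (SE 0.29, adjusted p = 7.51e-05 by edgeR). MpGH3B, of the family that conjugates auxin, fell by 2.09, and MpERF20, a synonym of MpLAXR, which responds to low auxin, fell by 1.95. MpCYP707A, whose enzymes break down abscisic acid, had 0.750, 0.551 and 0.816 CPM in Tak-2 and 3.86, 3.52 and 3.34 CPM in Tak-1, a fall of 2.33, and it was the only 1 of 6 tested abscisic acid genes to be called. MpCKX2, a cytokinin oxidase, fell by 1.69 and the cytokinin receptor MpCHK2 by 0.72. Of the 67 LEA genes tested, whose products protect drying cells, 7 rose and 4 fell. That is 16.4% called, beside 35.1% of all genes. MpLEA-like33 had 378, 351 and 343 CPM in Tak-2 and 133, 136 and 144 CPM in Tak-1. With the wild types fitted alone 20 LEA genes rose and 8 fell, and without TMM 7 fell. Of 29 expansins 7 rose and 7 fell (48.3% called, beside 35.1% of all genes). Their summed level did not overlap between the strains, at 2631, 2485 and 2126 CPM in Tak-2 and 1475, 1541 and 1468 CPM in Tak-1. MpExpansin34, of these wall-loosening proteins, had 18.7, 18.4 and 12.1 CPM in Tak-2 and 2.56, 3.15 and 2.97 CPM in Tak-1.

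Some large differences sat side by side. Of the 930 autosomal genes at least 2-fold lower, 329 lay in 125 runs of neighbouring tested genes that all fell that far, and of the 371 at least 2-fold higher, 76 lay in 34 runs. Runs of at least 3 genes held 161 of the lower and 18 of the higher genes. Genes this much lower and higher were 6.68% and 2.66% of the autosomal genes tested. The number of runs that such shares would give by chance was not tested. The longest run held 8 genes from Mp4g05210 to Mp4g05300. In it Mp4g05270 had 0.583, 0.991 and 0.748 CPM in Tak-2 and 8.19, 8.15 and 7.62 CPM in Tak-1. A run from Mp4g19040 to Mp4g19110 held 7 genes, among them MpUGT21 and MpMTPSL23. Mp8g14540, in a run of 5, had 1.71, 1.98 and 1.84 CPM in Tak-2 and 51.3, 51.1 and 52.0 CPM in Tak-1, a fall of 4.8 (SE 0.11, adjusted p = 1.47e-10 by edgeR). On the higher side MpCupin65, MpCupin66, MpCupin68 and MpCupin69 formed a run of 4 on chromosome 5, and MpCupin68 had 12.5, 6.39 and 18.4 CPM in Tak-2 and 1.63, 2.64 and 2.94 CPM in Tak-1.

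To see which differences a second pair of a female and a male repeats, the line labelled Mpmri-1 was set against the one labelled Mpfer-1, which shares no library with the wild types. MpFER stood at 89.0 to 102 CPM in the Mpfer-1 libraries, below its 154 to 169 CPM in Tak-1. In the libraries labelled Mpmri-1, MpMRI ranged from 649 to 764 CPM, above its 264 to 269 CPM in Tak-2, so that this label goes against the level of its gene. The 2 lines differ in the gene their labels name as well as in sex, and these cannot be told apart. Between these lines 27.1% of the autosomal genes tested were higher in Mpmri-1 and 24.1% lower, 51.2% in all. Of the 4842 autosomal genes called between the wild types, 1836 (37.9%) were called the same way, 827 (17.1%) the opposite way and 2179 not at all. Of the 2364 that rose in Tak-2, 1128 rose in Mpmri-1 and 266 fell, and of the 2478 that fell in Tak-2, 708 fell in Mpmri-1 and 561 rose.

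Among the larger differences the same and the opposite direction were nearly as frequent. Of the 1301 autosomal genes called at 2-fold or more, 316 were called the same way and 322 the opposite way, and of the 109 at 16-fold or more, 25 and 37. Those repeated in direction include Mp4g20540, with 0, 0.0367 and 0 CPM in Tak-2 and 19.2, 18.1 and 20.5 CPM in Tak-1; it again had no count in Mpmri-1, beside 31.1, 26.3 and 27.4 CPM in Mpfer-1. Mp7g07880 had 0.0833, 0 and 0.0340 CPM in Tak-2 and 3.23, 4.09 and 3.26 CPM in Tak-1; in the second pair it had 0.0937, 0.135 and 0.0659 CPM in Mpmri-1 and 2.31, 3.05 and 3.09 CPM in Mpfer-1. Mp3g11970 had 3.21, 1.84 and 2.82 CPM in Tak-2 and 0.0333, 0 and 0.0571 CPM in Tak-1; in the second pair it had 6.23, 4.31 and 5.40 CPM in Mpmri-1 and 0, 0.154 and 0.0730 CPM in Mpfer-1. These and the MpFGMYB locus were on in both lines of 1 sex and nearly or wholly off in both lines of the other. Of the thallus genes, MpBHLH14 repeated its fall, at 12, 10.6 and 9.16 CPM in Mpmri-1 and 19.1, 19.3 and 17.8 CPM in Mpfer-1, while MpGCAM1, at 4.22, 2.86 and 2.90 CPM in Mpmri-1 and 3.99, 5.33 and 3.48 CPM in Mpfer-1, was not called (adjusted p = 0.165 by edgeR).

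**Figure D5:**
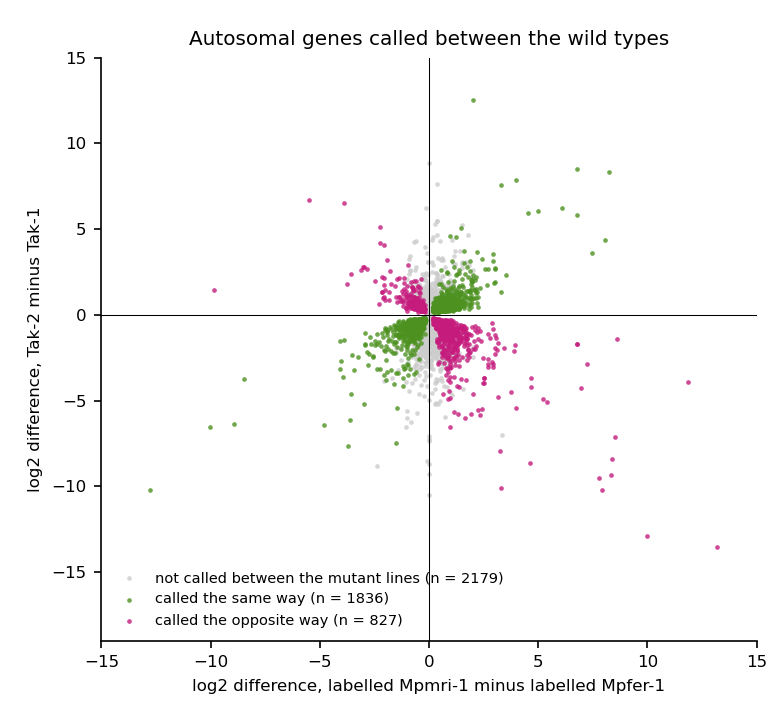
Difference in log2 level, Tak-2 minus Tak-1 (vertical axis), against the difference between the lines labelled Mpmri-1 and Mpfer-1 (horizontal axis) for the 4842 autosomal genes called between the wild types. Green points (1836) were called the same way in both, pink points (827) the opposite way and grey points (2179) between the wild types alone; far from the centre pink points are about as many as green ones, and values of genes with no count in a strain depend on the prior count of the fit.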

How the data were processed

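The deposited table held, per the file headers, estimated counts for 23399 transcript models in 12 libraries. They are not whole in all cells (65.5% were whole within 1e-09), and the authors' program, genome build and annotation were not given in the sources used here; the submitters' processing notes name FastQC, fastp and DESeq2 without a role. Per the labels' protocols, libraries were made with a stranded mRNA kit and spike-in controls. Models were summed to genes by removing the final dot and number, and sums were rounded. Symbols came from RefSeq's gene table by locus number (17416 of 18336 identifiers matched); no coordinates or sequences were used.

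All 12 libraries were fitted together with 1 mean per group in edgeR 4.0.16 (glmQLFit and glmQLFTest, TMM, low counts removed by filterByExpr, 8 residual degrees of freedom), in R 4.3.3. Count ratios have exact Clopper-Pearson intervals at 95%, while ratios against 0 counts are lower bounds with that strain set at 3 counts. Shares of counts have no interval. Genes were named by rule: all sex determination genes; the largest called autosomal differences of at least 2-fold and 1 CPM without overlap of libraries; genes on in 1 strain alone; the U and V genes with most counts; up to 3 called members per list; and genes called in both contrasts. Others, such as members of runs of neighbours and of the MCM, ATG, PEX, ACOS and PR families, were chosen after their values were seen. Members and lists were chosen with earlier results of these data known. The H3.1 and H4 genes are a part taken from the list of histones and chromatin. Lists match symbols or synonyms; glycoside hydrolases matched by the auxin pattern and MpC4HDZ, matched by the phenylpropanoid pattern, were removed. Alternatives were DESeq2 1.42.0, limma voom (limma 3.58.1), other scalings, no filter, the wild types alone, a replicate block and each wild-type library left out. In data simulated from these libraries over 14044 genes, 50 genes above 1 CPM were changed by each of 1, -1, 2 and -2 log2 units. Counts were drawn with the dispersions of the fit itself. The fit recovered 88% of genes set 1 log2 unit apart, and 0.0578% of unchanged genes were called. Far fewer genes were changed than were called in the real data, so these rates need not hold there or for genes under 1 CPM.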

Additional observations from a re-analysis of the deposited data

Results flagged for a closer look

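For 5216 autosomal genes (37.5% of those tested) the difference between Tak-2 and Tak-1 was not the same as that between the lines labelled Mpmri-1 and Mpfer-1, tested as an interaction in edgeR's quasi-likelihood fit. For MpRKD the wild-type difference was 0.11 and that between the mutant lines -0.49, which are 0.60 apart (adjusted p = 0.00364 by edgeR); its levels were 81.3, 94.2 and 106 CPM in Mpmri-1 and 126, 139 and 130 CPM in Mpfer-1. Mp4g19930 was higher in the female of both pairs, and its fitted differences were 10.52 apart (adjusted p = 6.7e-07 by edgeR), with 10.6, 10.8 and 8.70 CPM in Mpmri-1 and 3.73, 2.40 and 1.46 CPM in Mpfer-1. For 4 genes the directions were opposite: Mp3g10460 (fitted differences apart by -26.71), Mp6g09290 (-22.85), Mp5g23990 (-16.75) and Mp3g20670 (-13.29) fell in Tak-2 against Tak-1 and rose in Mpmri-1 against Mpfer-1. Each had no or 1 count in Tak-2 and at most 6 counts over the Mpfer-1 libraries, so these fitted sizes depend on the prior count and are no measured ratios. Groups of 3 libraries were not tested for single outlying libraries.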

How the results depend on the processing

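The counts over all autosomal, U and V genes kept within 1.5 times of those reported under DESeq2's test, DESeq2 size factors, TMM on autosomes, limma voom, no filter and the wild types alone. Among all alternatives run for these counts, the exceptions were autosomal genes higher in Tak-2 without TMM (1401) and the on and off genes at a minimum of 20 counts (32) or with 0 counts over the other strain (8). Without TMM 29.9% of the autosomal calls were higher, against 48.8%. Leaving out 1 library gave 1629 to 2159 autosomal genes higher, 1844 to 2286 lower, 331 to 388 and 824 to 911 of at least 2-fold, 32 to 33 U genes, 33 to 35 V genes, 1261 to 1863 genes called the same way in both pairs and 18 to 23 on and off genes. The letters A, B and C did not pair libraries of the 2 strains: deviations of same-lettered libraries correlated at 0.0003, 0.04 and -0.01, and a replicate block gave 2183 higher and 2395 lower. Of 125 called genes named or shown, 111 stayed called in every alternative that tested them. With the wild types fitted alone only 121 of the 125 were tested, and these stayed called. Losses were 8 with a library left out, 6 without TMM, 2 under the block and 1 each under voom and no filter. No direction reversed. Depth limits genes of a few counts, such as MpRLK-Pelle_L-LEC15.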

Other observations

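Gene families that the comparisons above do not describe also held called members, beside 17.1% of all genes higher and 18.0% lower in Tak-2. Of 102 cytochrome P450 genes tested 19 rose and 40 fell, and of 219 cell wall enzyme genes 24 rose and 63 fell. Of 73 ABC transporter genes 6 rose and 19 fell, among them MpABCG4, of the half-size transporter subfamily, with 12.2, 12.5 and 12.2 CPM in Tak-2 and 36.7, 34.5 and 37.98 CPM in Tak-1, a fall of 1.57. Of 88 receptor-like kinase genes 8 rose and 20 fell. Of 39 genes of vesicle traffic 2 rose and 8 fell, among them MpARFA3, a small GTPase gene, with 22.9, 21.7 and 20.6 CPM in Tak-2 and 35.4, 37.8 and 37.3 CPM in Tak-1. Transcription factors as a class were balanced, with 42 higher and 43 lower of 263 tested, but the number higher was 26 without library A of Tak-2, 25 without library A of Tak-1 and 18 without TMM. Without TMM the higher genes also numbered 14 of the cell wall enzymes, 3 of the ABC transporters and 3 of the receptor-like kinases, and the lower genes of vesicle traffic 15, which were 5 without library B of Tak-2. Over the 56 symbol families with at least 10 tested genes, 33 held more lower than higher calls and 20 more higher than lower.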
